A study of Heterocephalus glaber with 2 samples.

Results

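Spliceosomal small nuclear RNA (snRNA) loci were examined in full-thickness dorsal skin of the naked mole-rat (Heterocephalus glaber), a long-lived subterranean rodent, by RNA sequencing of rRNA-depleted total RNA. The set holds every locus that the deposited tables annotate from RFAM, a database of structured RNA families, and whose gene name is only a spliceosomal snRNA. This gave 1254 of the 24514 loci, or 1254 of the 2463 with an RFAM description. They comprised 839 U6 loci, 205 U4, 110 U2, 80 U1, 17 U5 and 3 U12 loci. The other 3 names of the rule, U4atac, U6atac and U11, matched no locus analysed here. Another 8 loci that joined an snRNA with a different name were left out.

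The old group was skin of animals aged 19 years and the young group skin of animals aged 4 years, with no treatment, sex or strain in the labels. Each age is 1 recorded sample with 2 deposited tables, taken here as 1 library each and called old 1, old 2, young 1 and young 2 after the numbers in the tables. Nothing in the labels tells if an age was sampled from 1 animal or from several, so a p-value here reflects the scatter of these libraries, possibly technical, and not of animals.

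Spliceosomal snRNAs are short nuclear RNAs that, with bound proteins, form the snRNPs that remove introns. U1 pairs with the start of an intron and U2 with its branch site. U4 carries U6 in an inactive pairing, U6 then forms the catalytic centre, and U5 holds the exon ends. U12 takes the place of U2 in the rare minor introns. In vertebrates these RNAs come from multicopy families, and most annotated copies are thought to be pseudogenes. How reads that match several near-identical copies were counted is not stated, so the value of 1 locus is less certain than the sum of its class. No snRNA sequence was at hand for comparing the copies.

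Values were FPKM, fragment numbers divided by locus length and library size, with a lowest value of 0.0001 (the floor). The snRNA loci summed to 29379 FPKM in old 1 and 236 in old 2, against 37633 in young 1 and 71.8 in young 2. This is 6.60% and 0.0581% of the summed FPKM of the old libraries, against 9.38% and 0.0169% in the young libraries. The number in the tables thus separated the libraries far more than age did, and results are given within each number, as old 1 with young 1 and old 2 with young 2. Each is a comparison of 1 library with 1 library and has no replicate check. All RFAM loci held 51.4% and 0.773% of the summed FPKM in the old libraries, against 47.0% and 0.593% in the young libraries. Mitochondrially encoded genes held 4.06% and 29.6% in the old libraries, against 5.77% and 23.2% in the young libraries. The part of this difference in RNA composition in the results below was not tested.

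In the number 1 libraries, where snRNAs were abundant, the major classes did not move together. U1 summed to 16920 FPKM in old 1 against 27750 in young 1, a ratio of 0.610. U2 summed to 10306 FPKM in old 1 against 7851 in young 1, a ratio of 1.31. The skin library of the old animals thus had less U1 and more U2 signal than its young counterpart. U4 summed to 1881 FPKM in old 1 against 1700 in young 1, a ratio of 1.11. U6 summed to 242 FPKM in old 1 against 311 in young 1, a ratio of 0.778. U4 was thus nearly level and U6 stood between it and U1. The low classes were U12, with 16.5 FPKM in old 1 against 13.6 in young 1, and U5, with 12.4 FPKM in old 1 against 7.20 in young 1. On the log2 scale the sums differed by -0.71 for U1, -0.36 for U6, 0.15 for U4, 0.28 for U12, 0.39 for U2 and 0.79 for U5.

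**Figure D1:**
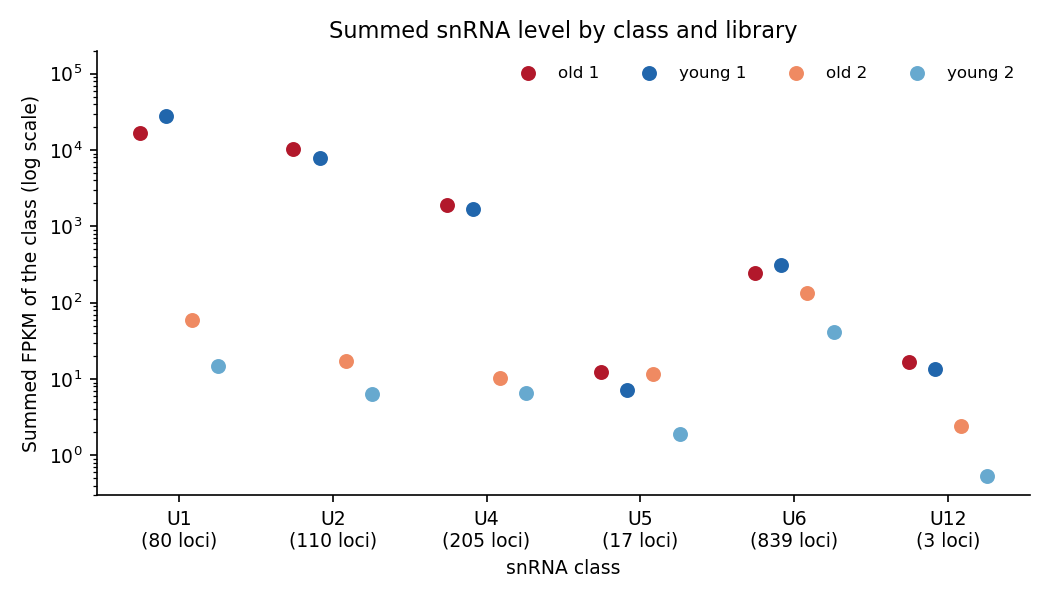
Summed FPKM of each snRNA class (log scale) in each library, with the number of loci per class; each point is 1 library. U1 is lower in old 1 (16920) than in young 1 (27750) and U2 higher (10306 against 7851), while in the number 2 libraries every class is higher in old 2 than in young 2 and the sums of U1, U2 and U4 are at most 58.9 FPKM.

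The number 2 libraries held little snRNA, and there every class was higher in old 2. U1 summed to 58.9 FPKM in old 2 against 14.9 in young 2, and U2 to 17.2 FPKM in old 2 against 6.41 in young 2. U6, the largest class in these libraries, summed to 136 FPKM in old 2 against 41.4 in young 2. U5 summed to 11.6 FPKM in old 2 against 1.90 in young 2. The order by age was therefore opposite in the 2 numbers for U1 and U6 and the same for U2, U4, U5 and U12. For U2 and U4 this held only with the locus that was highest in number 1. The other U2 loci summed to 32.5 FPKM in old 1 against 48.2 in young 1, but to 13.2 against 5.48 in number 2. The other U4 loci summed to 63.0 FPKM in old 1 against 91.8 in young 1, but to 10.3 against 6.57 in number 2. Of the U12 sum, MSTRG.33682 made up 98.5% in old 1 and 24.5% in old 2. U4 summed to 10.3 FPKM in old 2 against 6.57 in young 2, and U12 to 2.43 FPKM in old 2 against 0.533 in young 2. The log2 differences of the sums in number 2 were 1.98 for U1, 1.42 for U2, 0.64 for U4, 2.60 for U5, 1.72 for U6 and 2.19 for U12. U5 was the only class whose sums did not overlap between the ages over all 4 libraries. In old 2 a single locus gave 4.86 of the 11.6 FPKM, more than the gap between this sum and the 7.20 FPKM of young 1. The smallest two-sided p that an exact permutation test can give with 2 libraries per age is 0.333, which U5 reached; U2, U4 and U12 gave p = 0.667 and U1 and U6 gave p = 1.

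Within an snRNA total, the balance of classes does not depend on how a library was scaled. U1 made up 57.6% of the snRNA FPKM in old 1 against 73.7% in young 1, 16.1 percentage points less. U2 made up 35.1% in old 1 against 20.9% in young 1, 14.2 points more. U4 made up 6.40% in old 1 against 4.52% in young 1. These 3 classes held nearly all of the snRNA signal of number 1, and U6 stayed at 0.824% in old 1 and 0.827% in young 1. No U5 or U6 locus reached 10 FPKM in any library. Whether the annotated loci include the main expressed U5 and U6 copies was not tested, so their sums need not give the level of these RNAs. The U1 to U2 ratio was 1.64 in old 1 against 3.53 in young 1, and the U1 to U4 ratio was 8.99 against 16.3. Leaving out the highest locus of each class takes away nearly all U2 and U4 signal of number 1 but only part of U1. Nearly all that remains is then U1, so the shares could hardly differ. That of U1 differed by -0.17 points between old 1 and young 1 and that of U2 by -0.0088 points. The U1 sum without its highest locus was still lower, at 13524 FPKM in old 1 against 19353 in young 1. In number 2 the U1 to U2 ratio went the other way, 3.43 in old 2 against 2.33 in young 2. U1 made up 24.9% of the snRNA FPKM in old 2 against 20.8% in young 2, and U6 made up 57.6% against 57.7%.

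Many snRNA loci had no signal. In all 4 libraries 598 of the 1254 lay at the floor, among them 407 of 839 U6 and 101 of 205 U4 loci. Above the floor were 468 loci in old 1 and 166 in old 2, against 452 in young 1 and 117 in young 2. At 1 FPKM or more were 135 and 74 loci in the old libraries, against 178 and 19 in the young libraries. The detected copies largely overlapped: of the loci above the floor in old 1, 74.8% were also above it in young 1, and of those in young 1, 77.4% were also above it in old 1. Among detected U6 loci the median level was 0.544 FPKM in old 1 and 0.769 in old 2, against 0.703 in young 1 and 0.315 in young 2.

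**Figure D2:**
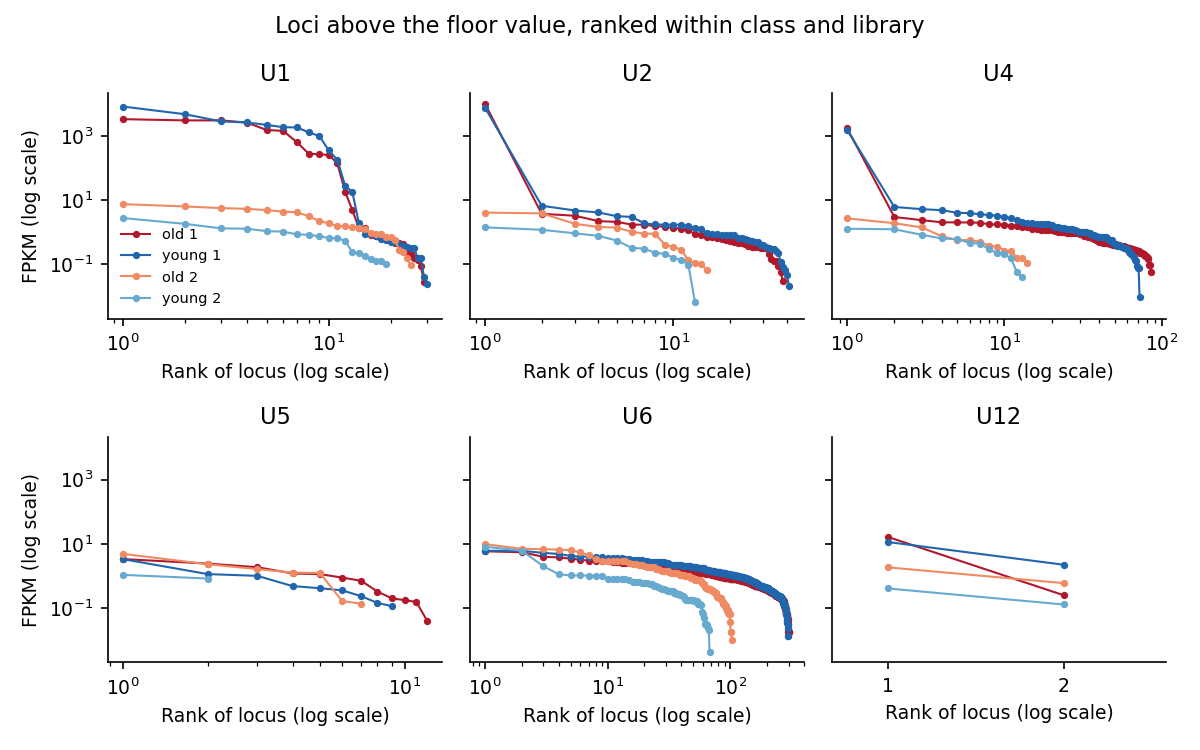
FPKM of the loci above the floor against their rank within the class and library (both axes on a log scale), 1 panel per class and 1 line per library. In number 1 a few U1 loci and a single U2 and U4 locus stand far above the others, while U6 declines without a break and no U6 locus reaches 10 FPKM in any library.

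Few loci carried the signal. The number 1 libraries had 11 U1 loci at 100 FPKM or more in both, and these held 99.8% of the U1 sum in each. They ranged over 143 to 3396 FPKM in old 1 against 183 to 8397 FPKM in young 1. Among them 9 were lower and 2 higher in old 1, with a median log2 difference of -0.64. Over all loci averaging 1 FPKM or more in this pair, 41.9% were lower and 58.1% higher in old 1. The other 69 U1 loci summed to 32.0 FPKM in old 1 against 56.0 in young 1.

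The highest U1 locus, MSTRG.94115, had 3396 FPKM in old 1 and 7.60 in old 2, against 8397 in young 1 and 2.80 in young 2. Old 1 was thus 2.47-fold below young 1, while old 2 was above young 2. It held 20.1% of the U1 sum in old 1 against 30.3% in young 1. MSTRG.70873 had 3108 FPKM in old 1 and 4.25 in old 2, against 4847 in young 1 and 0.652 in young 2. Both loci thus had the lower value in old 1 and the higher value in old 2.

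MSTRG.86859, between the chromatin remodelling gene BAZ1A and the sorting nexin gene Snx6, was 1 of the 2 that were higher in old 1. It had 3107 FPKM in old 1 and 4.94 in old 2, against 2884 in young 1 and 1.30 in young 2. It made up 18.4% of the U1 sum in old 1 against 10.4% in young 1. The other was MSTRG.94096, with 2656 FPKM in old 1 and 0.726 in old 2, against 2246 in young 1 and 0.131 in young 2. These were the only 2 of the 11 with old above young in both numbers, and neither differed by more than 1.18-fold in number 1.

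Among snRNA loci averaging at least 10 FPKM in number 1, MSTRG.53647 and MSTRG.53653 had the lowest log2(FPKM + 1) ratios of old 1 to young 1. MSTRG.53647 had 282 FPKM in old 1 and 1.60 in old 2, against 1909 in young 1 and 1.33 in young 2, 6.78-fold lower in old 1. MSTRG.53653 had 5.02 FPKM in old 1 and 28.6 in young 1, 5.70-fold lower in old 1, and lay at the floor in both number 2 libraries. These loci are close to each other in the numbering of the assembled loci. A further locus there, MSTRG.53646, had 273 FPKM in old 1 and 1.44 in old 2, against 1317 in young 1 and 1.06 in young 2.

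Locus numbers in the tables were taken to follow the order of genes along the genome. A RefSeq start on the assembly H.glaber_assembly_v1.0 could be matched to 13965 numbered loci. Of neighbouring pairs among them, 94.1% had start positions that differed by less than 1 Mb, with a median difference of 90.0 kb. Whether both lay on the same scaffold (assembled stretch of genome) was not compared, so this does not show that they are neighbours. Every placement of a locus next to or between genes given here is by locus number only. Taking U1 loci whose numbers differ by at most 25 as a run gave 2 runs. The first, MSTRG.53646 to MSTRG.53653, holds 3 loci between HJV (hemojuvelin) and Fcgr1a (an antibody receptor). It summed to 560 FPKM in old 1 and 3.04 in old 2, against 3255 in young 1 and 2.39 in young 2. The run was lower in old 1 by a factor of 5.81 and made up 3.31% of the U1 sum in old 1 against 11.7% in young 1. The nearest protein genes did not show this difference, with HJV at 7.83 FPKM in old 1 against 6.69 in young 1 and NUDT17, a gene within the run, at 2.44 against 1.86 FPKM. Without these 3 loci the U1 sum still differed by -0.58 on the log2 scale in number 1, so the lower U1 sum did not rest on them alone. The choice to leave them out was made after their values were seen.

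The second run, MSTRG.94096 to MSTRG.94115, lies between the septin gene Septin4 and the DNA repair gene Rad51c and held most of the U1 signal. Its 4 loci summed to 9071 FPKM in old 1 and 13.0 in old 2, against 15186 in young 1 and 3.85 in young 2. That was 53.6% of the U1 sum in old 1 against 54.7% in young 1, so this run changed with the class as a whole. Its members did not change alike. MSTRG.94111 had 1466 FPKM in old 1 against 2677 in young 1, and MSTRG.94098 had 1553 against 1866 FPKM, while MSTRG.94096 was higher in old 1 as given above. U3 loci, which encode a nucleolar RNA for rRNA processing, lie at both ends of the run and also differed from each other. MSTRG.94092 had 1830 FPKM in old 1 and 25.1 in old 2, against 334 in young 1 and 10.2 in young 2. MSTRG.94119 had 98.5 FPKM in old 1 and 21.1 in old 2, against 681 in young 1 and 33.2 in young 2.

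Of the remaining high U1 loci, MSTRG.14258, between the homeobox gene HHEX and the retinoic acid hydroxylase gene CYP26C1, had 645 FPKM in old 1 and 5.71 in old 2, against 1009 in young 1 and the floor in young 2. MSTRG.34768 had 259 FPKM in old 1 against 358 in young 1, and MSTRG.41603 had 143 against 183 FPKM, both at the floor in number 2. MSTRG.32067, at 18.5 FPKM in both old 1 and young 1, was the U1 locus of this level that differed least. Summed over the 11 high loci, the falls came to 11440 FPKM and the increases to 633 FPKM. The 3 largest falls in FPKM, at MSTRG.94115, MSTRG.70873 and MSTRG.53647, made up 73.2% of the summed fall.

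**Figure D3:**
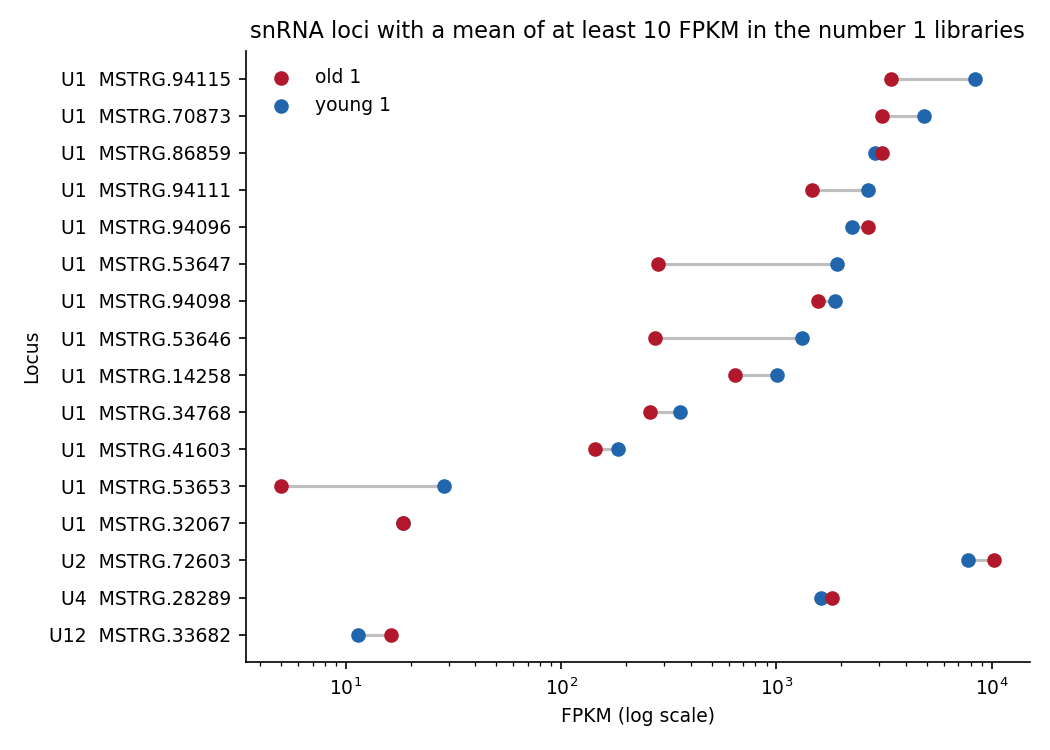
FPKM (log scale) in old 1 and young 1 of the 16 snRNA loci averaging at least 10 FPKM in these libraries; each pair of points joined by a line is 1 locus. The widest gaps are at the U1 loci MSTRG.53647, MSTRG.53646 and MSTRG.53653, lower in old 1, while the U2 locus MSTRG.72603 and the U4 locus MSTRG.28289 are higher in old 1.

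U2 signal came almost wholly from a single locus. MSTRG.72603, between C12orf56 and the innate immune kinase gene TBK1, had 10274 FPKM in old 1 and 3.92 in old 2, against 7803 in young 1 and 0.936 in young 2. It was higher in the old library within each number and 1.32-fold higher in number 1. It held 99.7% of the U2 sum in old 1 and 99.4% in young 1. The other 109 U2 loci together had 32.5 FPKM in old 1 against 48.2 in young 1, so they went the other way. The next in level were MSTRG.93530, with 2.24 FPKM in old 1 against 6.78 in young 1, and MSTRG.48674, with 1.56 against 4.81 FPKM. MSTRG.93530 lay at the floor in old 2 and had 0.779 FPKM in young 2, and MSTRG.48674 lay at the floor in both number 2 libraries.

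U4 had the same shape. MSTRG.28289, between the sirtuin gene SIRT4 and the ribosomal protein gene RPLP0, had 1818 FPKM in old 1 against 1608 in young 1 and lay at the floor in both number 2 libraries. It held 96.6% of the U4 sum in old 1 against 94.6% in young 1. The remaining U4 loci summed to 63.0 FPKM in old 1 against 91.8 in young 1, again lower in old 1. The next in level, MSTRG.55359, had 1.99 FPKM in old 1 against 6.22 in young 1, and MSTRG.55838 had 3.01 against 3.97 FPKM. Both lay at the floor in number 2. The small U2 and U4 increases in number 1 therefore each rested on a single locus. Without it, the log2 difference of the class was -0.57 for U2 and -0.54 for U4.

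The U12 class was given by 3 loci. MSTRG.33682, between the glycosyltransferase gene A4GALT and the reductase gene CYB5R3, had 16.3 FPKM in old 1 and 0.596 in old 2, against 11.3 in young 1 and the floor in young 2. MSTRG.52339 was at the floor in both old libraries and had 2.23 FPKM in young 1 and 0.404 in young 2. MSTRG.4588 had 0.250 FPKM in old 1 and 1.84 in old 2, against the floor in young 1 and 0.128 in young 2. MSTRG.33682 and MSTRG.4588 were higher in the old library within each number and MSTRG.52339 lower, with values near 1 FPKM or less in most libraries.

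No U5 locus exceeded 4.86 FPKM. MSTRG.59688 had 3.34 FPKM in old 1 against 0.412 in young 1 and lay at the floor in number 2. MSTRG.99509 had 2.42 FPKM in old 1 and 1.63 in old 2, against 1.14 in young 1 and the floor in young 2. MSTRG.68665 had 0.199 FPKM in old 1 and 0.164 in old 2, against 3.32 in young 1 and the floor in young 2. The higher U5 sums of the old libraries thus did not extend to every copy.

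The U6 loci, by far the most numerous, had low values throughout, and the highest stood at 5.84 FPKM in old 1 and 9.78 in old 2, against 6.08 in young 1 and 8.14 in young 2. MSTRG.11386 had 2.98 FPKM in old 1 and 0.972 in old 2, against 6.08 in young 1 and 0.131 in young 2. MSTRG.50776 had 5.84 FPKM in old 1 against 6.01 in young 1 and lay at the floor in number 2. MSTRG.956, at 5.48 FPKM in old 1 and 6.32 in old 2 against 5.22 in young 1 and 6.11 in young 2, was nearly level across all 4 libraries. It is 1 of 2 U6 members that join a second gene ID in the tables. The other, MSTRG.36913, had 2.79 and 6.57 FPKM in old 1 and 2, against 2.37 and 8.14 in young 1 and 2. The values of these 2 loci need not come from U6.

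Single loci were then counted in number 1, where 150 of the 1254 had a mean of at least 1 FPKM over old 1 and young 1. On the log2(FPKM + 1) scale, 5 of them were at least 2-fold higher in old 1, where 2.44% of all loci that passed the same minimum were. At least 2-fold lower were 41, where 2.16% of all loci were. Here and in number 2, all loci were not matched to the snRNA loci for length, or for level beyond the shared minimum. Near-identical copies may share reads, so these loci need not be independent. The median log2 difference was -0.43 for the snRNA loci and 0.06 for all 13290 loci. By class, 20 of 86 U6 loci were at least 2-fold lower and 4 higher, and 9 of 30 U4 loci were lower and 0 higher. Among U2 loci 5 of 13 were lower and 0 higher, among U1 loci 5 of 14 were lower and 0 higher, and among U5 loci 1 of 5 was lower and 1 higher. A locus that is silent in 1 library passes the minimum only through the other and so had to differ. Such loci were 7 of the 150, all at the floor in old 1. Among the 143 above the floor in both libraries, 34 were at least 2-fold lower and 5 higher in old 1, with a median of -0.35. Among the 16 snRNA loci averaging at least 10 FPKM, 4 were at least 2-fold lower and 0 higher in old 1, against 2.14% and 2.67% of the 3744 loci of that level.

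The 5 higher loci were the U5 locus MSTRG.59688 and 4 U6 loci, which were named after their values were seen. MSTRG.96490 had 2.29 FPKM in old 1 and 2.24 in old 2, against 0.221 in young 1 and the floor in young 2. MSTRG.10973 had 3.79 FPKM in old 1 against 1.19 in young 1, MSTRG.3567 had 1.99 against 0.240 FPKM, and MSTRG.59498 had 1.82 against 0.186 FPKM. MSTRG.96490 alone of these 4 was also above the floor in old 2.

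**Figure D4:**
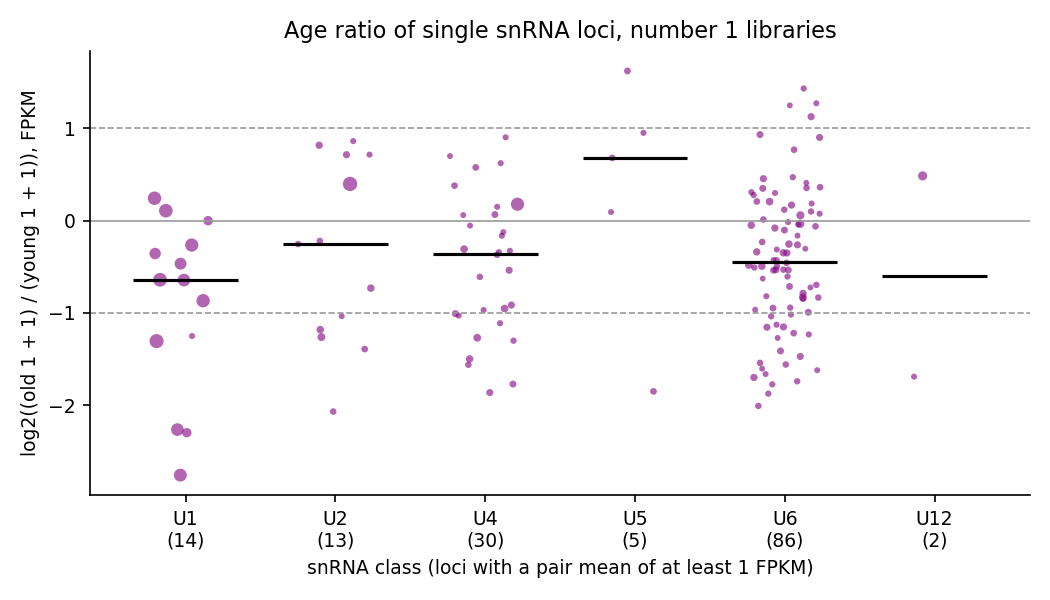
Log2 ratio of old 1 to young 1, after adding 1 FPKM, for each of the 150 snRNA loci averaging at least 1 FPKM in these libraries; points are loci, larger where the mean is higher, black bars are class medians and dashed lines mark 2-fold. More points lie under the lower dashed line (41) than above the upper one (5), in every class with more than 5 loci.

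In number 2, 40 snRNA loci had a mean of at least 1 FPKM. Old 2 was above young 2 for 39 of them and below it for 1, where 45.9% and 54.1% of all loci of this pair were. Of the 40, 31 were at least 2-fold higher and 0 lower in old 2. Over all loci of this pair 4.99% were higher and 5.91% lower. Of the 40 loci, 16 lay at the floor in young 2 and so had to be higher. Among the other 24, 15 were at least 2-fold higher, with a median log2 difference of 1.27. More single loci were thus lower than higher in old 1, and more were higher than lower in old 2.

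Across all 4 libraries, limma on log2(FPKM + 1) tested 76 snRNA loci, those with a mean of at least 1 FPKM. It called 0 higher and 0 lower at adjusted p under 0.05, and over all 12753 loci tested it likewise called 0% higher and 0% lower. Age was the only term of this fit, so the difference between the numbers entered its scatter. For loci far apart between the numbers a call was thus hardly possible, and its absence says little about age. At unadjusted p under 0.05 stood 1 snRNA locus on the higher side, MSTRG.96490, and 1 on the lower side, the U6 locus MSTRG.4424, where 0.196% and 0.416% of all loci tested stood. MSTRG.4424 lay at the floor in both old libraries, against 2.67 FPKM in young 1 and 1.99 in young 2, the lowest limma p among the snRNA loci (unadjusted 0.0231, adjusted p = 1.00). Both old libraries lay above both young ones for 3 of the 76 loci, where 7.3% of all loci did, and below them for 2, where 6.46% did. The 3 were MSTRG.96490, MSTRG.99509 and the U6 locus MSTRG.32491, which had 2.60 FPKM in old 1 and 6.96 in old 2, against 1.82 in young 1 and the floor in young 2. The other locus below was the U4 locus MSTRG.89513, with 1.23 FPKM in old 1 and the floor in old 2, against 5.29 in young 1 and 1.25 in young 2. None of the high U1, U2 and U4 loci separated the ages across the 4 libraries, which their gap between the numbers did not allow. The highest, MSTRG.72603, had a limma log2 difference of 0.87 ± 4.95 (SE, n = 2 libraries per age, adjusted p = 1.00). With the number as a further term its SE was 0.44.

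In number 1, most other small structural RNAs were not lower in old 1 as U1 was. The signal recognition particle RNA, part of the machinery that targets secreted proteins, summed to 145114 FPKM in old 1 against 110835 in young 1, a ratio of 1.31. RNase P RNA, which trims tRNA precursors, had 17992 FPKM in old 1 against 11064 in young 1, a ratio of 1.63. RNase MRP RNA had 18266 FPKM in old 1 against 13080 in young 1, a ratio of 1.40. The abundant RNAs thus stood higher in old 1, and 7SK, the RNA that holds the elongation factor P-TEFb inactive, was nearly level with a ratio of 1.06. U3 had 1933 FPKM in old 1 against 1017 in young 1, and the telomerase RNA 50.9 against 49.7 FPKM. Of the 9 such RNAs summed, U7, the histone pre-mRNA processing snRNA, was the only other with a ratio under 1, at 0.950 FPKM in old 1 against 1.03 in young 1. The ratio of U2, 1.31, was thus close to that of the signal recognition particle RNA, and the U1 ratio of 0.610 lay below those of all 9. In number 2 the U1 ratio did not lie below those of the other RNAs, which differed widely. The signal recognition particle RNA had 654 FPKM in old 2 against 136 in young 2, RNase P RNA 29.9 against 3.35 FPKM and RNase MRP RNA 7.82 against 0.355 FPKM. With 7SK at 223 FPKM in old 2 against 59.1 in young 2, a ratio of 3.77, these RNAs were higher in old 2, as the U1 sum was with a ratio of 3.94. Y RNA and the telomerase RNA had ratios of 5.34 and 3.78. U3 was nearly level, with 46.2 FPKM in old 2 against 43.4 in young 2. The 5S rRNA, under 1 FPKM in both, had a ratio of 1.10, and U7 lay at the floor.

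Genes whose products bind, make or process snRNAs were read from the same fit over all loci. Of 122 genes in 9 lists, 111 matched a locus and 110 were tested. None was called higher or lower by limma, and 0 had an unadjusted p under 0.05. Higher in the old library within both numbers were 31 of the 110, or 28.2%, where 26.7% of all tested loci were. Lower within both were 15, or 13.6%, where 23.1% of all loci were. The median log2 difference of the genes was 0.14 in number 1 and -0.15 in number 2, against 0.07 and -0.06 for all loci. In number 1, 83 genes were higher in old 1, where 58.7% of all tested loci were, and in number 2, 67 were lower in old 2, where 54.6% were. Both old libraries lay above both young ones for 9 of the 110 genes, where 7.3% of all tested loci did, and below them for 2, where 6.46% did. In number 1, 4 genes were at least 2-fold higher and 0 lower, where 2.36% and 1.83% of all tested loci were.

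The U1 protein genes included the single gene of the lists that was at least 2-fold higher in old skin within both numbers. SNRNP70, which encodes the U1-70K protein that binds the first stem loop of U1, had 24.4 FPKM in old 1 and 59.6 in old 2, against 9.63 in young 1 and 25.9 in young 2. The log2 difference was 1.26 in number 1 and 1.17 in number 2, but old 1 lay below young 2. The limma difference was 1.21 ± 0.74 (SE, n = 2 libraries per age), with unadjusted p = 0.158 and adjusted p = 1.00. The U1 sum, given above, was lower in the old library of number 1 and higher in that of number 2. SNRPC, which encodes the U1-C protein that helps U1 hold the start of the intron, had 12.3 FPKM in old 1 and 36.8 in old 2, against 4.02 in young 1 and 47.5 in young 2. SNRPA, LUC7L, LUC7L2 and LUC7L3 differed by at most 0.41 on the log2 scale in either number.

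The Sm genes encode the ring that binds U1, U2, U4, U5 and U12. Of 8, 1 was higher and 1 lower in both numbers. SNRPG had 9.09 FPKM in old 1 and 18.9 in old 2, against 6.17 in young 1 and 15.4 in young 2. SNRPD2, the highest, had 65.0 FPKM in old 1 and 108 in old 2, against 52.5 in young 1 and 167 in young 2, so its order by age turned with the number. SNRPD1 likewise had 13.9 and 13.1 FPKM in old 1 and 2, against 12.4 and 23.8 in young 1 and 2. The LSm ring instead binds the end of U6, and of its 6 tested genes 0 were higher and 3 lower in both numbers. LSM8, also of this ring, matched no locus of a single gene and was not tested. LSM2 had 7.24 FPKM in old 1 and 19.6 in old 2, against 10.5 in young 1 and 23.0 in young 2. LSM7 had 4.64 and 49.8 FPKM in old 1 and 2, against 4.72 and 83.0 in young 1 and 2. LSM3 turned with the number, with 5.34 and 8.71 FPKM in old 1 and 2, against 4.66 and 16.1 in young 1 and 2.

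Among 12 tested U2 protein genes 5 were higher and 1 lower in both numbers. SF3A2, a subunit of the SF3a complex that joins U2 to the branch site, had 7.61 FPKM in old 1 and 48.2 in old 2, against 4.61 in young 1 and 33.1 in young 2. SF3B6, which contacts the branch site region, had 40.2 and 61.4 FPKM in old 1 and 2, against 25.5 and 79.5 in young 1 and 2. U2AF1, which reads the end of the intron, had 24.7 and 23.6 FPKM in old 1 and 2, against 23.7 and 38.4 in young 1 and 2. SF3A2 thus kept its order in both numbers, and the other 2 did not. Of 15 genes for U4, U5 and U6 proteins, 4 were higher and 1 lower in both numbers. The scaffold gene PRPF6 had 17.7 and 18.4 FPKM in old 1 and 2, against 14.8 and 15.3 in young 1 and 2, with no overlap. SNRNP200, the helicase that unwinds U4 from U6, had 34.0 and 26.2 FPKM in old 1 and 2, against 31.1 and 19.5 in young 1 and 2. SNU13, which binds U4, had 58.8 and 73.6 FPKM in old 1 and 2, against 49.3 and 99.0 in young 1 and 2.

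The 10 genes of minor spliceosome proteins comprised 4 that were higher in both numbers and 3 that were lower in both. RNPC3, which encodes a protein bound to U12, had 4.85 FPKM in old 1 and 4.97 in old 2, against 3.45 in young 1 and 3.29 in young 2, with no overlap. SNRNP25 had 5.12 and 3.81 FPKM in old 1 and 2, against 4.88 and 7.68 in young 1 and 2. SCNM1, a minor intron splicing factor, had 10.2 and 15.7 FPKM in old 1 and 2, against 4.71 and 19.3 in young 1 and 2. RNPC3 was thus the 1 of these 3 with the same order in each number.

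Genes for snRNA transcription had 5 of 12 higher and 1 lower in both numbers. ELL, of the little elongation complex that serves snRNA genes, had 4.80 FPKM in old 1 and 12.8 in old 2, against 4.12 in young 1 and 5.35 in young 2. ZC3H8, of the same complex, had 2.16 and 0.881 FPKM in old 1 and 2, against 2.97 and 1.38 in young 1 and 2. SNAPC5, a subunit of the complex that binds snRNA promoters, had 5.79 and 20.2 FPKM in old 1 and 2, against 5.75 and 29.0 in young 1 and 2. Integrator cuts the ends of snRNA transcripts, and 3 of its 15 genes were higher and 3 lower in both numbers. INTS12 had 4.27 and 5.69 FPKM in old 1 and 2, against 2.88 and 3.09 in young 1 and 2, with no overlap. INTS10 had 5.30 and 2.87 FPKM in old 1 and 2, against 5.55 and 5.72 in young 1 and 2, the reverse order. INTS11, the cutting subunit, had 18.9 and 26.4 FPKM in old 1 and 2, against 16.8 and 27.1 in young 1 and 2.

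Of 26 genes for export, assembly and maturation, 8 were higher and 2 lower in both numbers. PRMT5, the methyltransferase that modifies Sm proteins, had 8.31 FPKM in old 1 and 10.9 in old 2, against 7.20 in young 1 and 6.93 in young 2. WRAP53, a Cajal body protein, had 4.33 and 6.95 FPKM in old 1 and 2, against 3.49 and 4.35 in young 1 and 2. STRAP, of the SMN complex, had 29.2 and 37.3 FPKM in old 1 and 2, against 26.7 and 40.7 in young 1 and 2. PRMT5 did not overlap between the ages and the other 2 did. LARP7 and SSB, which bind the ends of RNA polymerase III transcripts, were the other genes at least 2-fold higher in number 1. LARP7 had 7.93 and 11.1 FPKM in old 1 and 2, against 3.35 and 12.7 in young 1 and 2. SSB, the La protein gene, had 11.1 and 9.74 FPKM in old 1 and 2, against 3.05 and 15.3 in young 1 and 2, so neither kept its order in number 2.

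**Figure D5:**
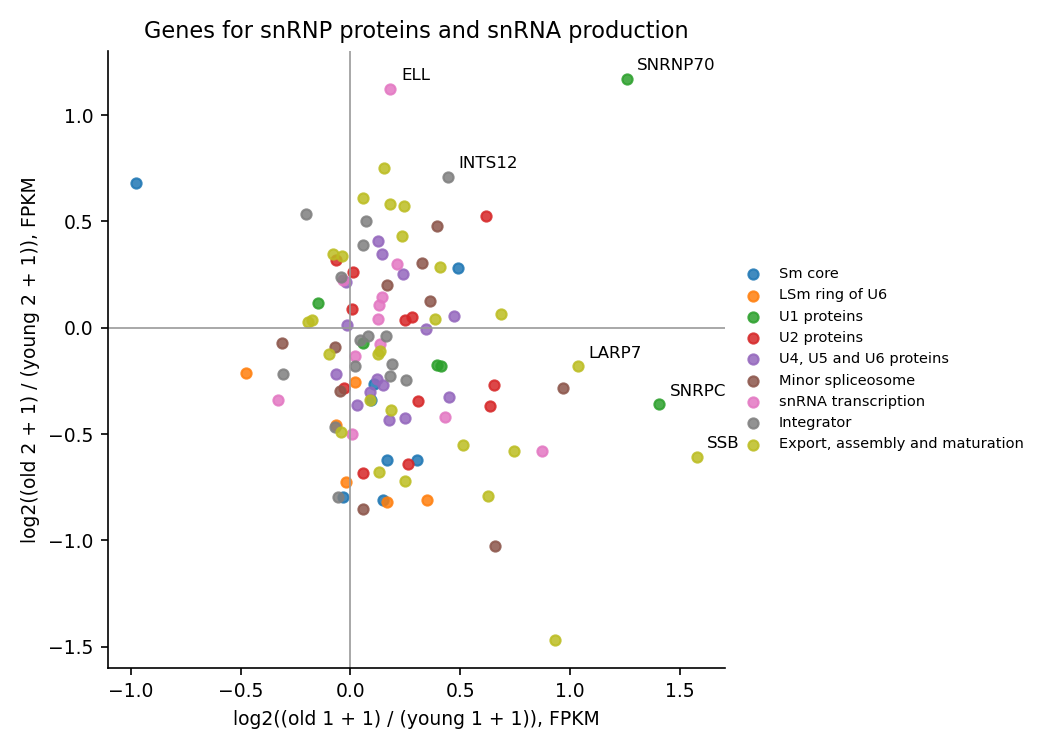
Log2 ratio of old 2 to young 2 against log2 ratio of old 1 to young 1, each after adding 1 FPKM, for the 110 tested genes of snRNP proteins and snRNA production; each point is 1 gene, coloured by list. SNRNP70 stands alone at the upper right with ratios of 1.26 and 1.17, and more genes lie right of the vertical line (83) than left of it (27).

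The skin held more than 1 cell type, and fewer cells of a type cannot be told apart from less RNA per cell. Epidermal markers summed to 2031 and 4097 FPKM in the old libraries, against 1962 and 5193 in the young libraries, over 4 of 6 listed genes, with KRT15 at the floor in old 2. KRT5, KRT10 and KRT15 were higher in old 1 and lower in old 2, as the sum was. TP63 was lower in both, with 7.69 and 2.56 FPKM in old 1 and 2, against 14.4 and 7.48 in young 1 and 2. Dermal fibroblast markers, 6 of 6 and led by collagen genes, summed to 830 and 237 FPKM in the old libraries, against 6238 and 8829 in the young libraries. The fibroblast sums rested on 3 collagen genes, COL1A1, COL1A2 and COL3A1. Of the other 3, DCN had 197 FPKM in old 1 and 140 in old 2, against 204 in young 1 and 248 in young 2, and LUM and PDGFRA were likewise nearly level in number 1. In number 2 they too were lower in the old library, with LUM at 8.20 FPKM in old 2 against 40.1 in young 2 and PDGFRA at 3.51 against 4.47 FPKM. Muscle markers, 3 of 6, summed to 2765 and 2286 FPKM in the old libraries, against 2224 and 1904 in the young libraries. ACTA1 and MYLPF were higher in the old library within both numbers. CKM was lower in both, with 450 and 524 FPKM in old 1 and 2, against 503 and 629 in young 1 and 2. Adipocyte markers, 4 of 5, summed to 598 and 117 FPKM in the old libraries, against 384 and 168 in the young libraries. Blood and immune markers, 5 of 6, summed to 42.9 and 177 FPKM in the old libraries, against 284 and 838 in the young libraries. This difference was mostly the globin gene HBA2, with 25.9 and 150 FPKM in the old libraries, against 258 and 750 in the young libraries. PTPRC, MZB1 and CD68 were also lower in the old library within both numbers. PTPRC had 5.91 and 2.20 FPKM in old 1 and 2, against 6.43 and 3.82 in young 1 and 2. MZB1 had 1.18 and 5.11 FPKM in old 1 and 2, against 7.50 and 45.0 in young 1 and 2. CD68 had 7.57 and 17.8 FPKM, against 11.7 and 36.7. Only CD3E was higher in old 1, with 2.31 against 0.857 FPKM, and it was lower in old 2, with 1.16 against 2.49 FPKM. Melanocyte markers, 4 of 4, summed to 12.6 and 44.6 FPKM in the old libraries, against 36.8 and 97.6 in the young libraries. PMEL, DCT and TYRP1 were lower in the old library within both numbers. MLANA was higher, with 1.83 and 3.45 FPKM in old 1 and 2, against 1.09 and 2.77 in young 1 and 2. Endothelial markers, 4 of 4, summed to 72.9 and 67.3 FPKM in the old libraries, against 91.7 and 63.0 in the young libraries. Schwann cell markers, 3 of 3, summed to 42.6 and 21.8 FPKM in the old libraries, against 22.9 and 39.3 in the young libraries. The part of these markers in the snRNA differences was not tested.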

How the data were processed

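The authors deposited FPKM values, 1 table per library and 24514 loci in each, for 2 libraries per age. Per the labels' protocols, total RNA with an integrity number above 7.5 was depleted of rRNA and sequenced as paired 150-base reads on a HiSeq 4000. Per the submitters' processing notes, cutadapt, FastQC, Bowtie2 and TopHat2 were used. The genome build, the counting tool, its handling of multiply mapped reads and of RNAs shorter than a fragment were not given in the sources used here, so no coordinates are printed. Low FPKM values were not whole multiples of a smallest step (10% to 17.7% of low U6 values were, at a tolerance of 0.02), so depth is unknown and no counting error is given. Above the floor, 0 values were identical in any pair of libraries.

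Class sums, shares and ratios were computed from FPKM as deposited. Single loci that averaged 1 FPKM or more were compared on log2(FPKM + 1), which understates the change of low loci. Limma 3.58.1 in R 4.3.3 was fitted over all 12753 loci with that mean, with age as the term, a mean-variance trend, two-sided p-values and a Benjamini-Hochberg threshold of 0.05, and was tested on simulated data. Python 3.11.15, pandas 2.3.3, scipy 1.17.1 and matplotlib 3.10.9 were used for the rest. Gene symbols missing from the tables came from a RefSeq gene table of H.glaber_assembly_v1.0. The members, gene lists and tests were chosen with earlier results of these data known. The rule for naming took all loci of a class with 3 or fewer, otherwise the 3 with the highest mean in number 1 and, at 10 FPKM or more, the 2 with the largest log2 ratio each way. Of pathway lists it took the 2 genes of lowest p and the 1 of highest mean. MSTRG.94111, MSTRG.94098, MSTRG.53646, MSTRG.14258, MSTRG.34768, MSTRG.41603 and MSTRG.32067, the runs, the U3 loci, LARP7, SSB and the U6 and U4 loci named for their ratio or for lying apart by age are outside this rule and were picked with their values in view.

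Other settings tried were a pseudocount of 0.1, no minimum or 5 FPKM, fold thresholds of 1.5 and 4, median-of-ratios scaling, rescaling on loci other than RFAM and mitochondrial ones, fits without the trend or with the library number as a term, class medians, class sums without the highest locus, mixed-name loci included, and each library left out.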

Additional observations from a re-analysis of the deposited data

How the results depend on the processing

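Rescaling the libraries shifted log2 ratios by -0.07 and -0.08 in number 1 and by 0.20 and 0.09 in number 2 (rescaling on other loci and median-of-ratios), and no class sum changed direction with it in number 1. In number 2 in place of number 1 the class log2 ratios were 1.98 for U1, 1.42 for U2, 0.64 for U4, 2.60 for U5, 1.72 for U6 and 2.19 for U12, and the class shares differed by 4.11 points for U1, -1.68 for U2, -4.81 for U4, 2.25 for U5, -0.16 for U6 and 0.29 for U12. Without the highest locus the class log2 ratio in number 1 was -0.52 for U1, -0.57 for U2, -0.54 for U4 and -3.15 for U12. The shares then differed by -0.17 points for U1, -0.0088 for U2 and 0.16 for U6, but nearly all of what remained was U1. The median over loci in number 1 was -0.25 for U2, -0.36 for U4 and -0.60 for U12, opposite in sign to the sums of these classes. It kept the sign of the sum for U1, U5 and U6, at -0.64, 0.68 and -0.44. The main counts were 5 snRNA loci higher and 41 lower in old 1. They became 16 and 58 with a pseudocount of 0.1, 0 and 4 with a minimum of 5 FPKM, and 18 and 59 with no minimum. They were 17 and 63 at 1.5-fold and 0 and 5 at 4-fold. Rescaling on other loci gave 11 and 62, median-of-ratios scaling 3 and 32, and number 2 gave 31 and 0. In number 2 the log2 ratio turned to 1.18 for MSTRG.94115, 0.16 for MSTRG.53647, 0.25 for MSTRG.53646 and 0.22 for MSTRG.68665. The cause was not tested for any of these. Within number 1, 83 of 84 settings for named loci kept their direction and 1 did not, that of MSTRG.956, whose log2 ratio lay near 0 throughout.

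The library numbers are not stated to pair the samples. Deviations from the age means correlated at 0.823 between old 1 and young 1, and with 2 libraries per age the other pair gives the same value. With the number as a replicate block, limma called 1 locus higher and 2 lower over all loci, and 0 of the 76 snRNA loci (lowest adjusted p = 0.234, MSTRG.4424), with 11 at unadjusted p under 0.05, where 377 higher and 460 lower of the 12753 loci were. SNRNP70 then had adjusted p = 0.373. Leaving out 1 library at a time, where a lone library is assumed to vary like the others, gave 0 to 24 calls higher and 0 to 32 lower over all loci, and 0 to 11 higher and 0 to 10 lower among snRNA loci. The 11 came without young 1, the 10 without old 1, and 2 lower calls without young 2, settings that unbalance the numbers against the ages. Of 255 settings for the named snRNP and snRNA genes, 226 kept their direction, 29 did not, and 0 gave a call. Depth is unknown, and the number of libraries limits precision.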
